A study of Mus musculus with 24 samples.

Results

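The miR-34 and miR-449 families were followed in the hippocampus of neonatal mice given morphine under stress. The members were the mature and star probe sets whose array name carries miR-34a, miR-34b, miR-34c, miR-449a, miR-449b or miR-449c, and 8 of the 722 mature and star probe sets met this rule (the miR table held 1412 mouse probe sets with the hairpins). They were chosen with their levels on these same 9 arrays already known, so their differences between groups are given as a description, with no test. All pups were male C57BL/6 mice by their labels and were killed on postnatal day 9. Con pups were untreated (0 mg/kg morphine) and stayed with the dam. MS2 and MS5 pups received morphine at 2 or 5 mg/kg, with isolation from the dam and repeated short apnea, from postnatal day 5 to 9. Both hippocampi of a pup were pooled. Against Con, morphine and stress cannot be told apart. miRs were measured in 3 pups per group on Affymetrix miRNA 2.0 arrays, and mRNAs in 5 pups per group on Agilent arrays.

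miR-34 and miR-449 are 2 branches of a single seed family. A miR guides a silencing complex to mRNAs that pair with its seed, the bases near its 5′ end, and members with the same seed can act on the same mRNAs. Cells that build many motile cilia, such as ependymal cells and the choroid plexus epithelium next to the hippocampus, carry these miRs at high levels, and there they lower Ccp110 and Notch pathway mRNAs while basal bodies multiply. miR-34a is also a direct target of p53 and is made in neurons.

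The mature sequences are printed because the seed defines the family and its arms. Of the 8 members, 6 matched an entry of the RefSeq table on GRCm38.p6, and miR-34c and miR-449b are named only. Probe sets miR-34a, miR-449a and miR-449c carry no arm in their array name and were taken as the 5p arm. Capitals mark bases 2 to 8, the seed. The 5p arms come first, then the 3p arms.
mmu-miR-34a-5p: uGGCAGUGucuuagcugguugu
mmu-miR-34b-5p: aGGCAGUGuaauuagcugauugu
mmu-miR-449a-5p: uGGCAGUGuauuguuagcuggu
mmu-miR-449c-5p: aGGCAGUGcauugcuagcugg
mmu-miR-34b-3p: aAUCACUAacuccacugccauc
mmu-miR-34c-3p: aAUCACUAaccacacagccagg
The seed GGCAGUG was carried by 4 of the 1679 mature names of the table (0.238%), all of them shown, and AUCACUA by 2 (0.119%). miR-34a-5p and miR-34b-5p were 4 base edits apart, and so were miR-449a-5p and miR-449c-5p. Between these pairs 6 or 7 edits were needed. The 3p arms shown were 5 edits apart. How far the array probes separate such close sequences was not tested.

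miR-34a-5p lies at chr4:150068473-150068494 on the plus strand, inside no protein-coding gene span of RefSeq. miR-34b-5p at chr9:51103610-51103632, miR-34b-3p at chr9:51103574-51103595 and miR-34c-3p at chr9:51103044-51103065 share a cluster on the minus strand, within the span of Btg4 and Hoatz. miR-449c-5p at chr13:113036008-113036028 and miR-449a-5p at chr13:113037549-113037570 lie on the plus strand within Cdc20b, the host gene of all miR-449 genes. These positions give the gene span only, with no call of exon or intron.

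Among the arrays, 3 mRNA libraries stood apart. The array of MS5 pup 9 went against its male label: Xist, the RNA that coats an inactive X, was at 11.34 (log2) there and between 5.89 and 6.08 on the other 14 arrays, and the Y-linked Ddx3y was at 6.24 against 11.01 to 11.45. On the array of MS2 pup 4, all 10 hippocampal neuron markers had their lowest level of the 15 arrays, with a median difference of -2.53 (log2) from the Con mean. MS2 pup 5 had a median spot signal of 51.02, against 100.4 to 127.9 elsewhere. The 10 neuron markers were well above background on every array, as the tissue label requires. The miR arrays had like medians, from 4.17 to 4.21 (log2), and no scan or slide is given for them in the sources used here. Most MS5 differences of the mRNA arrays, and the MS2 list medians, are given also without MS5 pup 9 or MS2 pup 4. Without MS2 pup 5, the MS2 medians of the 5 lists below ran from -0.28 to -0.03, and Cdc20b differed by -0.06.

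miR-34c had the widest spread of the members across the 9 arrays, 2.56 on the log2 scale. Its deposited level (log2) was 10.91, 9.84 and 11.01 in Con pups 16, 17 and 18, and 10.33, 9.83 and 10.16 in MS2 pups 3, 4 and 6. In MS5 it was 8.45 in pup 12, 8.50 in pup 14 and 10.75 in pup 9. So 2 MS5 pups lay below every other pup and the third lay among the controls. The MS5 mean was 9.24 ± 1.31 (SD, n = 3) and the Con mean 10.59 ± 0.65, a difference of -1.35 ± 0.57 (SE), which is a ratio of 0.392. The distance from the higher of pups 12 and 14 to the lowest of the other 7 pups was 1.33.

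miR-34c-star, the other arm of the same hairpin, had the same order. It was 9.28, 8.51 and 9.37 in Con, 8.65, 8.00 and 8.58 in MS2, and 7.27, 7.42 and 8.98 in MS5 pups 12, 14 and 9 (log2). MS5 was lower than Con by -1.16 ± 0.43 (log2, SE), a ratio of 0.446. MS2 also lay lower than Con, by -0.64 ± 0.43, with 1 MS2 pup below all Con pups.

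miR-34b comes from the same cluster as miR-34c, and both of its arms were on the array. miR-34b-5p was 6.22, 5.68 and 6.65 in Con, 6.68, 5.85 and 6.66 in MS2, and 4.72, 4.80 and 6.16 in MS5 pups 12, 14 and 9. Here too, pups 12 and 14 were the lowest of all 9 pups and pup 9 lay within the Con range. The difference between MS5 and Con was -0.96 ± 0.41 (log2, SE), a ratio of 0.514. miR-34b-3p was 7.47, 7.01 and 7.51 in Con, 7.96, 6.75 and 7.61 in MS2, and 6.12, 5.99 and 7.61 in MS5. Its difference was -0.75 ± 0.43, and the same 2 pups were the lowest.

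miR-449a, known from multiciliated cells of airway and brain, was 8.74, 8.41 and 9.40 in Con, 9.33, 7.68 and 9.15 in MS2, and 7.22, 7.44 and 9.07 in MS5 pups 12, 14 and 9. MS5 was lower than Con by -0.94 ± 0.55 (log2, SE), a ratio of 0.521. MS2 pup 4 came close to the low MS5 pups, 0.25 above the higher of them. miR-449b stayed between 4.27 and 4.75 on all 9 arrays, near the array medians, and its MS5 minus Con difference was 0.03 ± 0.15. miR-449c was 5.03, 4.45 and 4.87 in Con, 4.80, 4.45 and 4.05 in MS2, and 4.30, 4.36 and 4.45 in MS5. Its difference was -0.42 ± 0.20 and its groups overlapped. No detection call was used, so whether these last members were above background is not known.

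miR-34a, the p53-regulated member, was 7.27, 6.47 and 7.20 in Con, 7.33, 7.50 and 6.84 in MS2, and 6.36, 5.93 and 7.003 in MS5 pups 12, 14 and 9. Its MS5 minus Con difference, -0.55 ± 0.30 (log2, SE) or a ratio of 0.682, was the smallest among the 6 members in which pups 12 and 14 were the lowest. Pup 12 was only 0.11 below the lowest other pup, which was Con pup 17.

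**Figure D1:**
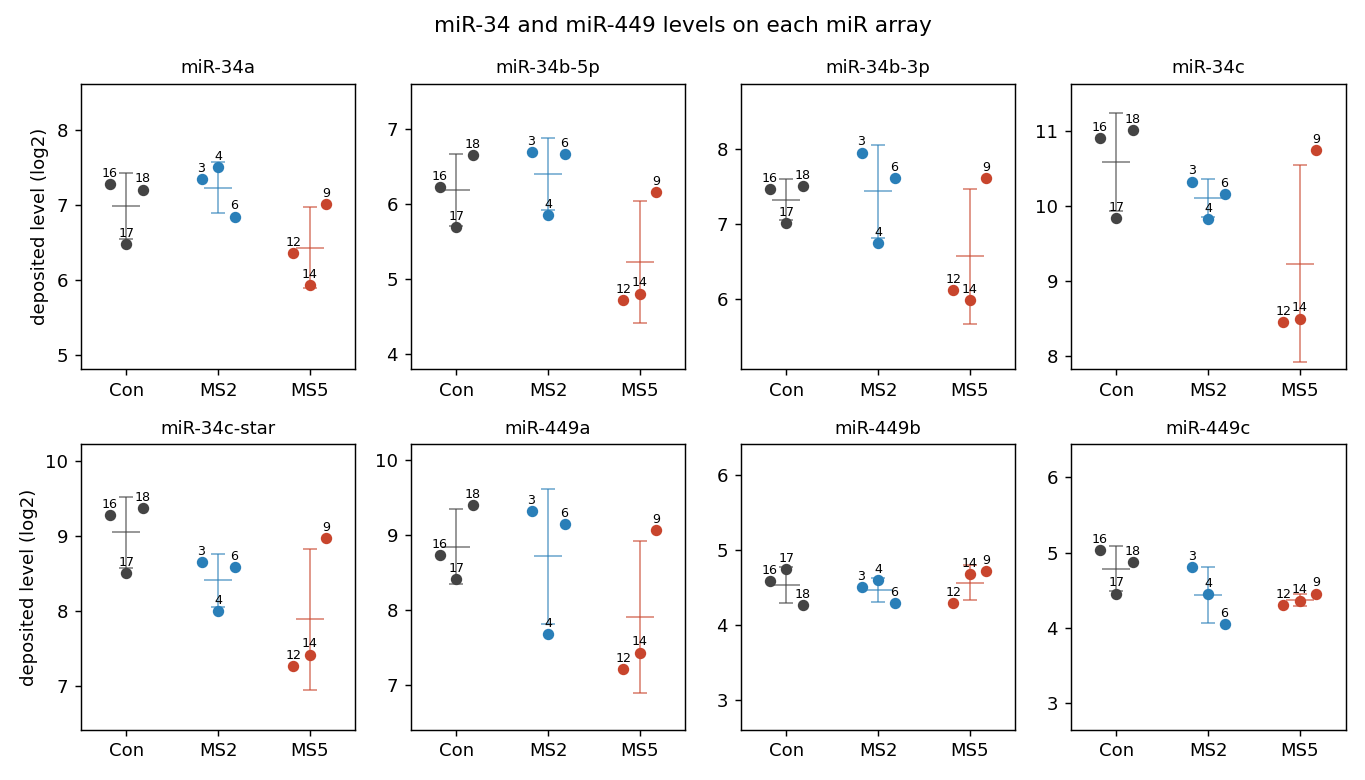
Deposited level (log2, vertical axis) of the 8 members on each of the 9 miR arrays, by group (horizontal axis). Points are pups with their numbers, and bars give the group mean and SD (n = 3); every panel spans the same number of log2 units. MS5 pups 12 and 14 are the lowest points for 6 members, while MS5 pup 9 sits at Con level and miR-449b and miR-449c show no such split.

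Over the 8 members, the median MS5 minus Con difference was -0.85 (log2), beside 0.0014 over all 1412 probe sets, and 7 of 8 lay below 0. At the study's threshold (over 1.5-fold with an unadjusted p under 0.05, limma), 3 of 8 members were lower in MS5, namely miR-34c, miR-34c-star and miR-34b-5p, where 0.779% of all probe sets were. Nothing is read from this count, since it comes from the arrays on which the members were chosen. It rested on single arrays: it was 0 without MS5 pup 12, MS5 pup 14, Con pup 16 or Con pup 18, and 6 without MS5 pup 9. For no member did all MS5 pups lie below all Con pups, which 5.74% of the probe sets showed. The median difference stayed below 0 in each of these leave-one-out fits, from -1.35 to -0.56. The study named miR-34c and its star arm among the miRs altered on these arrays and measured both by RT-PCR. Neither was among the miRs for which it reported that RT-PCR bore out the array.

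For the 6 members in which MS5 pups 12 and 14 were the lowest, no MS2 pup was as low. MS2 pup 4 still lay below every Con pup for miR-34c, miR-34c-star, miR-34b-3p and miR-449a. For miR-34c it did so only just, at 9.833 against 9.838 in Con pup 17. For miR-34a it lay above every Con pup. The median MS2 minus Con difference was -0.10, or -0.01 without MS2 pup 4. In limma 0 of 8 members were lower past the threshold, beside 1.56% of all probe sets. At an unadjusted p under 0.05 without the fold limit the count was also 0. The largest MS2 differences were -0.64 for miR-34c-star and -0.48 for miR-34c, whereas miR-34a, miR-34b-5p and miR-34b-3p lay above Con by 0.24, 0.21 and 0.11. Between the doses, the median MS5 minus MS2 difference was -0.80, and 2 of 8 members were lower past the threshold (miR-34b-5p by -1.17 ± 0.41 and miR-34a by -0.80 ± 0.30, SE), beside 0.283% of all probe sets.

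The members at higher levels varied together from pup to pup. Over the 6 members with a mean level of 5.5 or more (a limit set after their values were seen), the 15 pairs had a Pearson r from 0.567 to 0.978 with a median of 0.877 across the 9 arrays, which share the MS5 split. Taking each pup as its deviation from its group mean, the median r was 0.913. This r keeps the MS5 split too, since pup 9 lay above the MS5 mean and pups 12 and 14 below it. No r free of that split is given. The arms of miR-34c went together most closely (0.978), and miR-34a with miR-449a least (0.567). miR-34a thus followed the chromosome 9 and 13 members less closely than these followed each other. Between Con pups the 6 members also moved as a set: pup 17 had a median of -0.50 and pup 18 of 0.37 around the Con mean. In MS2 this median was 0.42 in pup 3, -0.66 in pup 4 and 0.07 in pup 6, so pup 4 lay below Con pup 17. In MS5 this median was -1.55 in pup 12, -1.40 in pup 14 and 0.09 in pup 9.

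Hairpin probe sets read the precursor and the same letters within it. Of the 6 hairpins of these genes, 4 stayed within 3.85 to 4.53 on all arrays, near the array medians. The mir-34c hairpin was 4.98, 4.61 and 5.17 in Con, 5.03, 4.47 and 4.69 in MS2, and 4.00, 4.31 and 4.92 in MS5 pups 12, 14 and 9. It had the same low pups as mature miR-34c at a far smaller range, and its MS5 minus Con difference was -0.51 ± 0.24 (log2, SE). The mir-449b hairpin, with a difference of -0.25 ± 0.11, was lowest in pups 12 and 14 at 4.70 and 4.73, whereas the mature miR-449b probe set did not set these pups apart. For this hairpin pup 9, at 4.952, also lay just below the lowest Con level, 4.966. Of all probe sets, 5.74% had all MS5 pups below all Con pups.

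Among all other mature and star probe sets, 5 were named for a profile most like that of miR-34c, by Pearson r over the 9 arrays. These r span the split between MS5 pups 12 and 14 and the other 7 arrays, so they rank profiles and give no relation within the other pups. They were miR-448 (r = 0.929), miR-764-3p (0.909), miR-764-5p (0.874), miR-3072 (0.873) and miR-30c-2-star (0.870). miR-448 and both miR-764 arms lie within Htr2c, the serotonin receptor 2C gene, whose mRNA is known to be abundant in the choroid plexus. miR-448 was 7.16, 6.76 and 7.61 in Con, 7.52, 6.92 and 7.52 in MS2, and 4.81, 4.71 and 7.25 in MS5 pups 12, 14 and 9. Its low pups were the same 2 as for miR-34c. miR-3072 differed by only -0.07 between MS5 and Con and was ranked for its small pup-to-pup changes. None of the 5 carries a seed printed above.

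**Figure D2:**
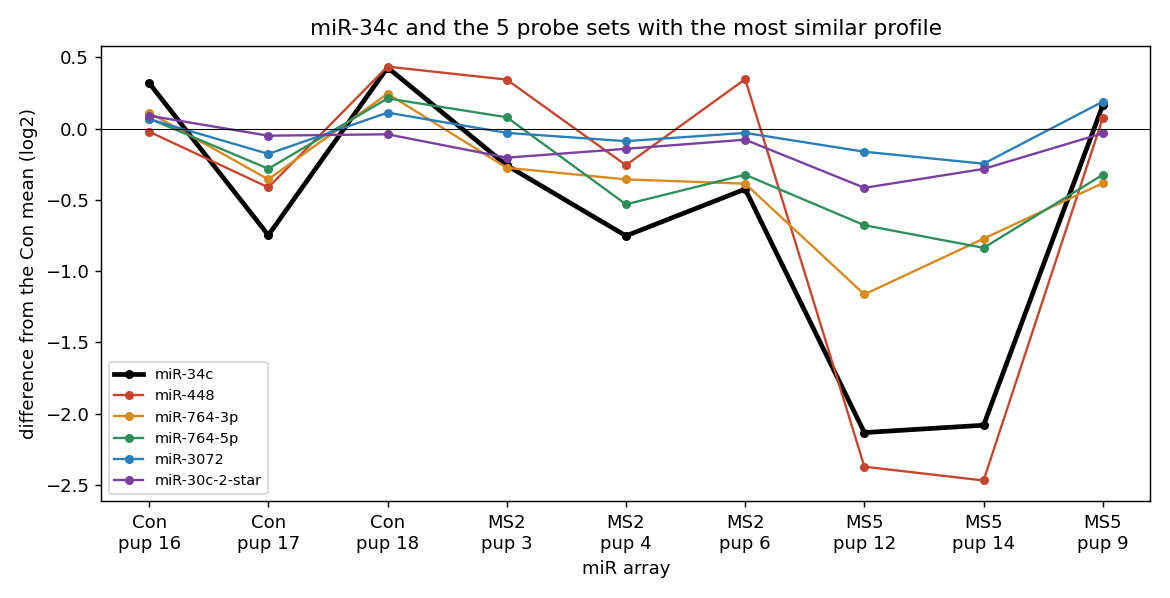
Difference from the Con mean (log2, vertical axis) of miR-34c (thick line) and of the 5 non-member probe sets with the highest Pearson r to it, on each of the 9 miR arrays (horizontal axis). miR-448 is low together with miR-34c in MS5 pups 12 and 14 and at Con level in pup 9, while miR-3072 and miR-30c-2-star stay within a narrow band.

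The mRNA arrays were not used to choose the members, and they held 5 MS5 pups, of which pups 8 and 13 were on no miR array. In the fit over all 55681 probesets, 0 had a limma adjusted p under 0.05 for MS5 versus Con (0%), and 2176 had an unadjusted p under 0.05. The counts below therefore use the study's threshold, and none of the calls passed the adjustment. In bulk tissue, fewer cells of a type and less RNA per cell cannot be told apart.

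Cdc20b, the host gene of the miR-449 cluster, was close to the detection limit. Its level (log2) was 6.22, 6.46, 6.31, 6.21 and 6.24 in Con pups 15 to 19, and 6.33, 6.25, 6.27, 6.16 and 6.05 in MS2 pups 1, 3, 4, 5 and 7. In MS5 pups 8, 9, 12, 13 and 14 it was 6.25, 6.12, 6.21, 6.16 and 6.09. The groups overlapped. The MS5 minus Con difference was -0.12 ± 0.06 (SE, n = 5) with a limma adjusted p of 1 and a two-sided exact permutation p of 0.0556, where the smallest p possible is 0.00794. MS2 minus Con was -0.07 ± 0.06 (limma adjusted p = 0.97, exact permutation p = 0.333). Without MS5 pup 9 the first difference was -0.11, and without MS2 pup 4 the second was -0.09. The probeset was well above background on 5 of 5 Con, 3 of 5 MS2 and 3 of 5 MS5 arrays. Scaling each array's processed signal by its 75th percentile gave an MS5 difference of -0.60. The mRNA array of pup 12, the number with 7.22 for miR-449a, had a Cdc20b level equal to that of Con pup 18 to the second decimal.

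The regulators that start multiciliation were next. Foxj1 turns on motile cilium genes, Gmnc and Mcidas commit a cell to the multiciliated fate, and Ccno and Deup1 serve basal body production. Of the 19 regulators measured, 1 was lower in MS5 past the threshold and 0 were higher, where 0.332% of 21984 genes were lower and 0.0773% higher. That gene was Gmnc. Without the fold limit 4 of 19 had an unadjusted p under 0.05, beside 3.91% of all probesets, and the smallest p was that of the transcription factor gene Foxn4, with a difference of -0.44 ± 0.12 (unadjusted p = 0.00314, limma adjusted p = 1, exact permutation p = 0.0238), or -0.39 without pup 9. Foxn4 is outside the rule for named genes and was picked after its values were seen. The median of the 19 was -0.09, or -0.11 without MS5 pup 9, beside -0.01 over all genes. In MS2, limma put 0 of 19 past the threshold in either direction (3 of 19 had an unadjusted p under 0.05, beside 4.17% of all probesets), where 0.0136% of genes were lower and 0.0136% higher, and the median was -0.13, or -0.10 without MS2 pup 4.

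Gmnc was 8.20, 8.53, 8.41, 8.05 and 7.89 in Con pups 15 to 19, and 7.86, 7.06, 8.26, 7.41 and 6.60 in MS5 pups 8, 9, 12, 13 and 14. All MS5 pups but pup 12 lay below every Con pup. The difference was -0.77 ± 0.28 (log2, SE), with a limma adjusted p of 1, an unadjusted p of 0.015 and an exact permutation p of 0.0476. Without MS5 pup 9 it was -0.68, and without pup 14 no regulator was past the threshold. MS2 was 8.61, 8.57, 7.53, 7.82 and 8.11 in pups 1, 3, 4, 5 and 7, and differed from Con by -0.08.

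Foxj1 varied widely within each group. It was 10.26, 11.22, 11.11, 10.14 and 11.17 in Con pups 15 to 19 and 11.05, 9.56, 11.11, 10.37 and 9.89 in MS5 pups 8, 9, 12, 13 and 14, so that pups 9 and 14 lay below Con and the other pups within it. The difference was -0.39 ± 0.32 (limma adjusted p = 1, exact permutation p = 0.317), and -0.18 without pup 9. Ccno had a difference of -0.42 ± 0.20 (limma adjusted p = 1, exact permutation p = 0.119), and -0.30 without pup 9. Mcidas had a difference of 0.17 ± 0.12 (limma adjusted p = 1, exact permutation p = 0.246), or 0.20 without pup 9, but its probe, which the array lists under an older symbol, read 16.43 on average, above the 99th percentile of all probesets (16.26).

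The structural genes of motile cilia, such as dynein arms, tektins and radial spoke proteins, were mostly slightly lower. Of 40 genes, 34 lay below 0 in MS5, beside 54.1% of all genes. Past the threshold in limma, 0 were lower and 1 was higher, beside 0.332% and 0.0773% of all genes. Of the 40, 4 had an unadjusted p under 0.05 in either direction, beside 3.91% of all probesets. The median was -0.24 in MS5 and -0.27 in MS2, both against the same Con arrays. The higher gene was Spef2, a protein of the central apparatus of the axoneme. It was 12.11, 11.76, 11.88, 11.61 and 11.88 in Con and 12.31, 12.64, 12.18, 12.42 and 12.65 in MS5 pups 8, 9, 12, 13 and 14, with no overlap and a difference of 0.59 ± 0.23 (limma adjusted p = 1, exact permutation p = 0.00794, the smallest possible), or 0.54 without pup 9. The share of all genes with no such overlap was not counted. Spef2 was 11.99, 11.80, 13.35, 11.99 and 12.29 in MS2 pups 1, 3, 4, 5 and 7, so MS2 pup 4 had its highest level of all arrays. Its MS2 minus Con difference was 0.44 ± 0.23. Within slide 1 the list's MS5 median was 0.01 and within slide 2 it was -0.49, and the MS2 median turned to 0.03 within slide 1 and was -0.69 within slide 2. Without MS5 pup 9 the MS5 median was -0.16, and without MS2 pup 4 the MS2 median was -0.15. Without MS5 pup 12, 7 of the 40 were lower past the threshold.

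The choroid plexus genes had the largest MS5 differences of the 5 lists. Choroid plexus epithelium makes cerebrospinal fluid and carries tufts of cilia. Of 28 genes, 28 lay below 0 (54.1% of all genes did), 22 were lower past the threshold (0.332% of all genes) and 0 were higher (0.0773%), with a median of -1.11. In MS2 limma put 0 of 28 past the threshold, where 0.0136% of all genes were lower and 0.0136% higher. An unadjusted p under 0.05 was held by 0 of 28, beside 4.17% of all probesets. The MS2 median was -0.23, or -0.13 without MS2 pup 4. Within slide 1 the MS2 median was 0.04 and within slide 2 it was -0.59. This list was chosen with its result on these arrays known, so its count is no independent evidence.

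Ttr, the thyroid hormone carrier of cerebrospinal fluid, was 17.66, 18.15, 18.13, 17.88 and 17.92 in Con pups 15 to 19. In MS5 it was 17.89, 15.93, 17.92, 17.50 and 12.84 in pups 8, 9, 12, 13 and 14, so pups 9 and 14 were far below and pups 8 and 12 within the Con range. The difference was -1.54 ± 0.72 (log2, SE, limma adjusted p = 1, exact permutation p = 0.0873). Kl, which encodes klotho, differed by -1.11 ± 0.35 (limma adjusted p = 1, exact permutation p = 0.0159), and the folate transporter gene Folr1 by -1.29 ± 0.40 (limma adjusted p = 1, exact permutation p = 0.0397). Otx2, the transcription factor that maintains the epithelium, differed by -1.26 ± 0.53 (limma adjusted p = 1, exact permutation p = 0.0952). Without pup 9 these differences were -1.41 for Ttr, -0.92 for Kl, -1.10 for Folr1 and -0.88 for Otx2.

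The smallest unadjusted p of the list were those of Steap1, Col8a1, Kcnj13, Tmem72, Cab39l and F5, with differences from -0.66 for Cab39l to -1.56 for the potassium channel gene Kcnj13, which were -0.56 and -1.40 without pup 9. Steap1, of the STEAP family of membrane proteins, was 10.25, 11.20, 11.06, 10.66 and 10.88 in Con and 10.24, 8.62, 10.21, 9.57 and 7.97 in MS5 pups 8, 9, 12, 13 and 14. All 5 MS5 pups lay below all Con pups, but pups 8 and 12 (10.237 and 10.211) only just below the lowest Con pup (10.245), and the difference was -1.49 ± 0.37 (limma adjusted p = 1, exact permutation p = 0.00794, the smallest possible), or -1.31 without pup 9. How many of all genes split the groups in this way was not counted. By pup, the median deviation of the 28 genes from the Con mean was -0.31 in pup 8, -1.88 in pup 9, -0.08 in pup 12, -0.70 in pup 13 and -2.33 in pup 14.

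The choroid plexus median depended on the array set. It was -0.90 with 12 of 28 genes past the threshold without MS5 pup 9, and -0.75 with 14 of 28 without MS5 pup 14. It was -0.39 within slide 1 (pups 8 and 13), -1.62 within slide 2 (pups 9, 12 and 14) and -1.03 with the slide as a block. The 10 epithelium markers were well above background on every array, and their summed level (log2) ran from 17.80 to 18.36 in Con, 17.89 to 18.24 in MS2 and 13.43 to 18.09 in MS5. For the multiciliated markers other than Mcidas the sum ran from 12.91 to 13.86 in Con, 12.45 to 13.57 in MS2 and 12.19 to 13.83 in MS5. The part of either cell type in the miR-34 and miR-449 levels was not tested.

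**Figure D3:**
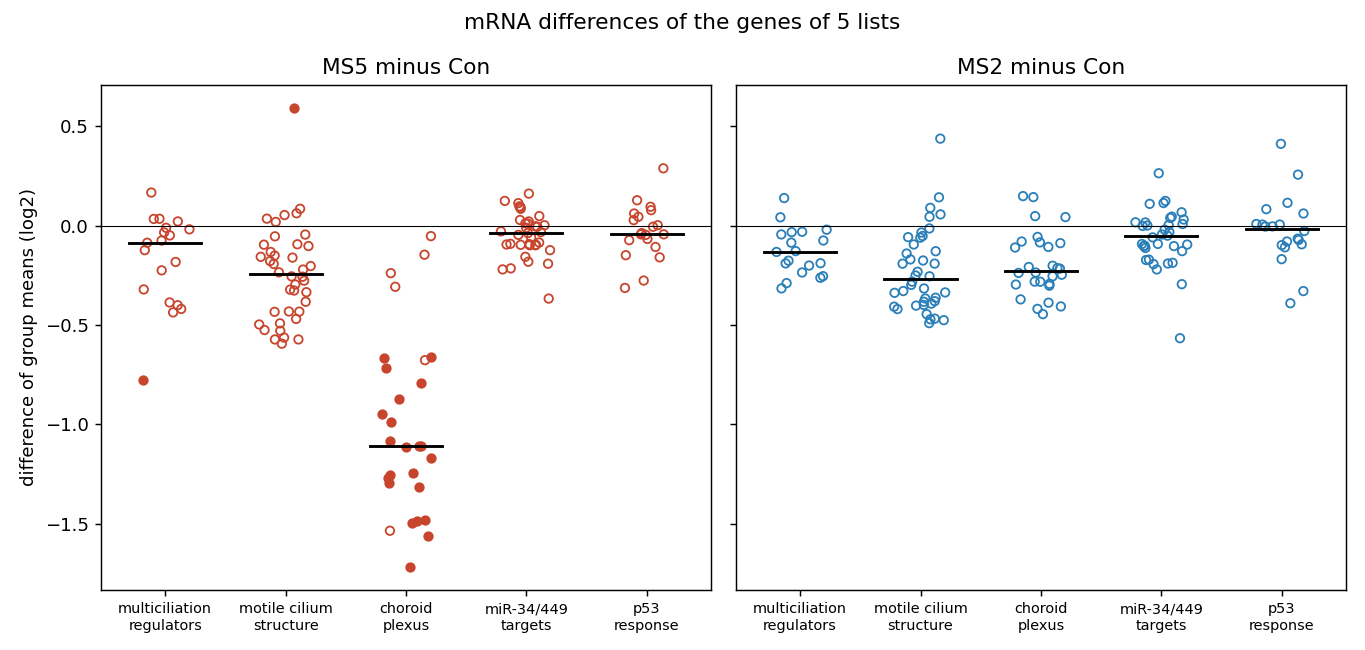
Difference from Con (log2, vertical axis) of each gene of 5 lists (horizontal axis), for MS5 on the left and MS2 on the right. Filled points passed the study's threshold, and the black line is the list median, which was -1.11 for the choroid plexus in MS5 and lay between -0.27 and -0.02 for all lists in MS2.

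Of the 9 pups on miR arrays, 8 carried a number that also stood on an mRNA array, which allowed both to be read for the same pup number. In MS5 pup 14, the 6 members at 5.5 or more (-1.40), the choroid plexus list (-2.33) and the motile cilium list (-0.41) all lay below the Con mean. In MS5 pup 12 the miRs were as low (-1.55), yet the choroid plexus list was at -0.08 and the motile cilium list at 0.20. In MS5 pup 9 it was the other way round: the miRs were at 0.09 while the choroid plexus list was at -1.88 and the motile cilium list at -0.62. Pup 9 is also the number whose mRNA array went against the male label, so whether its arrays come from the same animal is not known. For the other pup numbers, pup 12 among them, the link between the platforms rests on the number alone and was not tested.

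**Figure D4:**
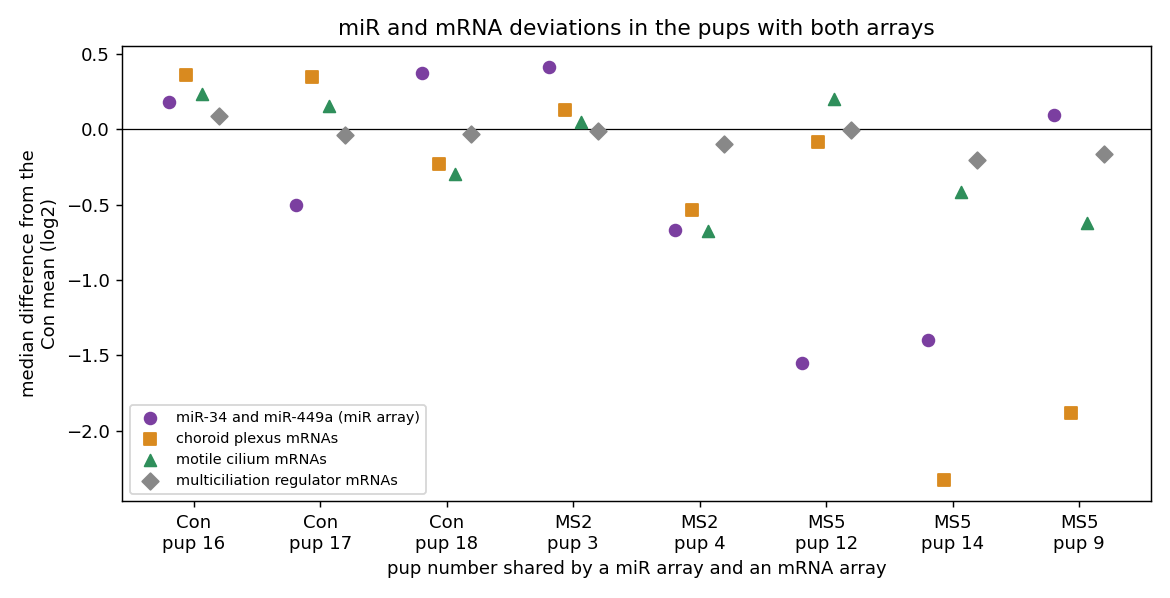
Median difference from the Con mean (log2, vertical axis) of the 6 miR-34 and miR-449a probe sets with a mean level of 5.5 or more and of 3 mRNA lists, for each of the 8 pup numbers with both arrays (horizontal axis). In MS5 pup 14 the miRs, the choroid plexus mRNAs and the motile cilium mRNAs are low. In pup 12 only the miRs are low (-1.55). In pup 9 the choroid plexus (-1.88) and motile cilium mRNAs (-0.62) are low and the miRs are not.

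Relations across pups were computed for miR-34a, miR-34c and miR-449a against Foxj1, Cdc20b and Ttr, 9 in all, with two-sided exact permutation p-values. For miR-34c, pups 12 and 14 formed a separate cluster (the gap was 51.9% of the range), so no pooled r is given, and within the other 6 pups r was -0.128 against Foxj1, -0.068 against Cdc20b and -0.261 against Ttr (exact p = 0.792, 0.889 and 0.778; rho = 0.143, -0.257 and 0.143, exact p = 0.803, 0.658 and 0.803). The highest r was that of miR-34a with Ttr, 0.624 over 8 pups (exact p = 0.0625, adjusted 0.562; rho = 0.286, exact p = 0.501), and it was 0.076 without the 2 pups farthest from the median. miR-34a with Cdc20b had an r of 0.488 (exact p = 0.222; rho = 0.524, exact p = 0.197), which was 0.063 without them. miR-34a with Foxj1 and miR-449a with Foxj1, Cdc20b and Ttr had r of -0.039, -0.026, 0.19 and 0.343. No relation had an adjusted p below 0.562. With 1 of these pups left out, a choice made after seeing the data, only some relations had no separate clusters: over 7 pups, miR-449a had r from 0.187 to 0.457 without MS5 pup 9, and miR-34a had r from 0.125 to 0.628 without MS2 pup 4 (smallest exact p = 0.441 and 0.07). The highest of these, miR-34a with Ttr at 0.628, was 0.045 without the 2 pups farthest from the median.

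The mRNAs most like miR-34c over these 8 pups, ranked by Pearson r among 16848 genes well above background on every array, were Terf1, Sgo2a, Nfkbia, Cct4 and Psma2. Since pups 12 and 14 form a cluster of their own, the ranking spans that split, and r is not given. They are a telomere binding protein, a cohesin protector, an inhibitor of NF-kappaB, a chaperonin subunit and a proteasome subunit. Their group differences were small, from -0.13 to -0.04 between MS5 and Con. They were picked from the top of this ranking, and no p is given.

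Known targets of the family were taken as a list of 35 genes, among them Ccp110, Notch1, Dll1, Bcl2, Cdk6, Met and Sirt1. In MS5 limma put 0 of 35 past the threshold, and the median was -0.04, beside -0.01 over all genes. An unadjusted p under 0.05 in limma was held by 2 of 35, both lower, beside 3.91% of all probesets in either direction. In MS2 limma put 0 of 35 past the threshold, with a median of -0.05, or -0.03 without MS2 pup 4. There, 5 of 35 had an unadjusted p under 0.05, all of them lower, beside 4.17% of all probesets in either direction. Without MS5 pup 9 the MS5 median was -0.03. The differences ran from -0.37 to 0.16 in MS5. On the mRNA arrays of MS5 pups 12 and 14, the numbers with low miRs, the median deviation of the targets from the Con mean was -0.04 and -0.07. For the p53 response, of which miR-34a is a part, 0 of 20 genes were past the threshold in MS5 and 0 in MS2 in limma. In MS5 2 and in MS2 2 had an unadjusted p under 0.05, beside 3.91% and 4.17% of all probesets. The medians were -0.04 and -0.02. Without MS5 pup 9 and MS2 pup 4 these medians were -0.03 and -0.01. Of all genes, 0.332% were lower and 0.0773% higher past the threshold in MS5, and 0.0136% in each direction in MS2.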

How the data were processed

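The authors deposited the miR values as log2 levels of Affymetrix miRNA 2.0 arrays, made by background correction, variance stabilization, probe-level quantile normalization and median polish, and the labels name RMA. They were used as deposited. The mRNA values came from the deposited Agilent scanner files, whose spot intensity had no normalization between arrays. Mean signals were corrected with normexp (offset 50) on the median local background and quantile normalized as log2 values, control spots were dropped and spots of a probe averaged, which left 55681 probesets. The authors' own log2 table differed by over 0.01 at 432 of them. Genes took current symbols through RefSeq accessions, then through the array's own symbol or a synonym, and Cdc20b through the array's description. Each gene took 1 probeset (probes named A_51 or A_52 first, then the highest mean level). The ranking of mRNAs most like miR-34c took the probeset with the highest mean level instead. R 4.3.3 and limma 3.58.1 (lmFit, eBayes) fitted the 3 groups of each platform in 1 model, with Benjamini-Hochberg adjustment over all features. The threshold was the study's, over 1.5-fold with an unadjusted p under 0.05. Single genes also had two-sided exact permutation tests over arrays. The fits were tested on simulated data.

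The members, gene lists and tests were chosen with earlier results of these data known. Named were all members and their hairpins, Cdc20b, Foxj1, Mcidas, Ccno, Gmnc, Ttr, Kl, Folr1 and Otx2, up to 6 genes past the threshold per list by smallest p, and the 5 miRs and 5 mRNAs most like miR-34c. Each array is a separate pup by the labels. Their number limits the precision. Alternatives were other background corrections, scalings, filters, array weights, the slide as a block, within-slide values and leaving out each array.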

Additional observations from a re-analysis of the deposited data

How the results depend on the processing

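The median member difference kept its direction for MS5 minus Con and for MS5 minus MS2 under all 12 alternatives each (from -1.35 to -0.56 and from -1.23 to -0.47), and MS2 minus Con ran from -0.29 to 0.02. The count of members lower in MS5 than in Con ran from 0 to 6 when each array was left out, and was within 1.5 times the main count under the other alternatives. Between MS5 and MS2 it ran from 0 to 6 when each array was left out, and it was 4 with array weights. For Cdc20b the sign was the same under all 20 alternatives and no adjusted p passed. Regulators lower in MS5 numbered 2 with normexp offset 0 and 2 with the processed signal, beside 1, and from 0 to 1 when each array was left out. Motile cilium genes lower in MS5 numbered 3 with array weights, beside 0, and from 0 to 7 when each array was left out. The choroid plexus count ran from 12 to 24 when each array was left out, and its MS5 median was -0.39 within slide 1. The MS2 medians moved within slides: regulators to -0.039 within slide 1 and -0.31 within slide 2, and within slide 2 the motile cilium list to -0.69, the target list to -0.12 and the p53 list to -0.11. The MS2 motile cilium and choroid plexus medians turned to 0.03 and 0.04 within slide 1, and the latter was -0.59 within slide 2; slide 2 holds MS2 pups 4 and 5. The cause of these changes was not tested. The relation of miR-34c to Foxj1 was -0.128 with the authors' values too, and -0.483 over 8 pups as deviations from group means (exact permutation p = 0.224), which was 0.027 without the 2 pups farthest from the median. Without MS5 pup 9 or MS2 pup 4, chosen after seeing the data, miR-34c has under 6 pups in each cluster and no r is given. No pup number occurs in 2 of the groups compared, so groups could not be paired by pup. By the paper, treated pups shared a home cage with untreated littermates, but the labels give no litter. Pups were therefore treated as independent in all fits and tests. With 3 pups per group, an exact test of a single miR cannot go below a p of 0.1.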

Other observations

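Second probesets of named genes gave further values. The other Cdc20b probeset was well above background on 8 of 15 arrays, with an MS5 minus Con difference of 0.0057 (log2), and the other Folr1 probeset had one of -2.002. Btg4, whose span holds the miR-34b and miR-34c genes, is outside the rule for named genes and was picked after its values were seen: its probeset was well above background on 1 of 15 arrays.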
